A study of Mus musculus with 6 samples.

Results

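Dental epithelium transcription factors are the regulators that give the epithelium of the mouse incisor its identity and keep its stem and progenitor cells. The set was chosen by gene symbol, with earlier results of these data known, and holds 8 genes, namely Sp6, Sp8, Isl1, Trp63, Grhl2, Foxi3, Tbx1 and Esrp1. Of these, 7 of 8 were measured among 25700 genes in the deposited counts, and Sp8 was not analysed here. All 7 passed the filter on low counts, which left 19264 genes. The RNA came from the proximal end of the incisor of 5-week-old C57BL/6 mice, with 3 libraries in each of 2 groups. The labels do not say that the libraries of a group came from separate mice. Control 1 differed in sex from the other controls by its Xist level, so it came from another mouse, and for the other libraries of a group the spread behind the p-values may be technical. Controls were Runx2fl/fl, with both copies of Runx2 floxed and no Cre. The conditional knockouts, called cKO here, were Gli1-CreERT2;Runx2fl/fl, in which tamoxifen activates Cre in cells that express Gli1. Both groups thus carried the floxed alleles. The labels give 1 tamoxifen protocol for all samples, 1.5 mg per 10 g body weight on 3 successive days when the mice were 1 month old, with collection 1 week after induction. Controls lacked the Cre allele, so loss of Runx2 and an effect of Gli1-CreERT2 cannot be told apart.

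The mouse incisor grows throughout life from stem cells at its proximal end. Epithelial stem cells in the cervical loop give rise to transit-amplifying cells and then to ameloblasts, which secrete enamel matrix and later mature it. Mesenchymal stem cells, among them Gli1-expressing cells, give rise to pulp and odontoblasts, and signals pass in both directions between the tissues. Gli1-CreERT2 is used as a driver for the mesenchymal cells, but hedgehog-responsive epithelial cells also express Gli1, and in which cells Runx2 was recombined was not measured here. The genes described here act mainly in epithelium. Sp6 (epiprofin) is a zinc-finger factor needed for ameloblast formation, and Trp63 encodes p63, the master regulator of stratified epithelia. Grhl2 maintains epithelial adhesion genes, and Esrp1 is an RNA-binding protein that sets epithelial splicing rather than a DNA-binding factor. Isl1, Tbx1 and Foxi3 pattern the dental epithelium and its progenitors.

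The labels call the tissue dental mesenchyme, but it held epithelium in every library. Amelx, the main enamel matrix gene, lay between 10155 and 42451 CPM (counts per 1000000 counts of a library, with library sizes scaled by TMM), and Krt5 and Krt14, keratins of basal epithelium, averaged 1003 and 533 CPM in controls. Mesenchymal genes were present too, with Col1a1 between 8124 and 31818 CPM. The libraries held 53525185 to 66694240 estimated counts, at which 1 count is worth 0.0150 to 0.0187 CPM. Runx2, the targeted gene, measured 79.7, 77.7 and 81.1 CPM in controls 1 to 3 and 62.6, 54.0 and 49.0 CPM in cKO libraries 1 to 3, so the groups did not overlap (edgeR log2 fold change -0.53, SE 0.089, adjusted p = 0.0714). Several libraries stood apart. Control 1 was male by Xist (0.595 CPM, against at least 2864 CPM in the 5 others), and its 8 skeletal muscle genes summed to 357 CPM against 12.9 to 16.5 CPM elsewhere. The 5 maturation-stage enamel genes summed to 111 and 97.9 CPM in controls 1 and 3 but to 1797 CPM in control 2 and 1106 to 2623 CPM in the cKO libraries. Neutrophil and marrow genes summed to 65.7 and 52.8 CPM in cKO 1 and cKO 2, against 6.73 to 17.0 CPM in the other libraries.

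Of the 7 genes, Sp6 was lowest relative to control, at 55.8% of the control mean, and Esrp1 and Foxi3 averaged 68.3% and 65.6%. Isl1, Trp63, Grhl2 and Tbx1 lay between 88.5% and 94.9% of control, with overlapping groups. None of the 7 passed the threshold over all genes tested (edgeR quasi-likelihood test, adjusted p under 0.05), a threshold that 0.026% of all tested genes passed. At an unadjusted p under 0.05, 3 were lower, namely Sp6, Esrp1 and Foxi3, where 8.55% of all tested genes were lower at that level. DESeq2 called 2 of the 7 lower, Sp6 and Esrp1, where it called 3.3% of all tested genes lower. The median log2 fold change of the 7 was -0.18, and that of all tested genes was 0.000048. The median of the 7 rested on single libraries, at -0.020 without control 3 and -0.048 without cKO 3, and was 0.029 with the epithelial reference genes as a covariate. In every cKO library Sp6 and Esrp1 lay below every control, a separation shown by 12% of all tested genes in that direction.

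**Figure D1:**
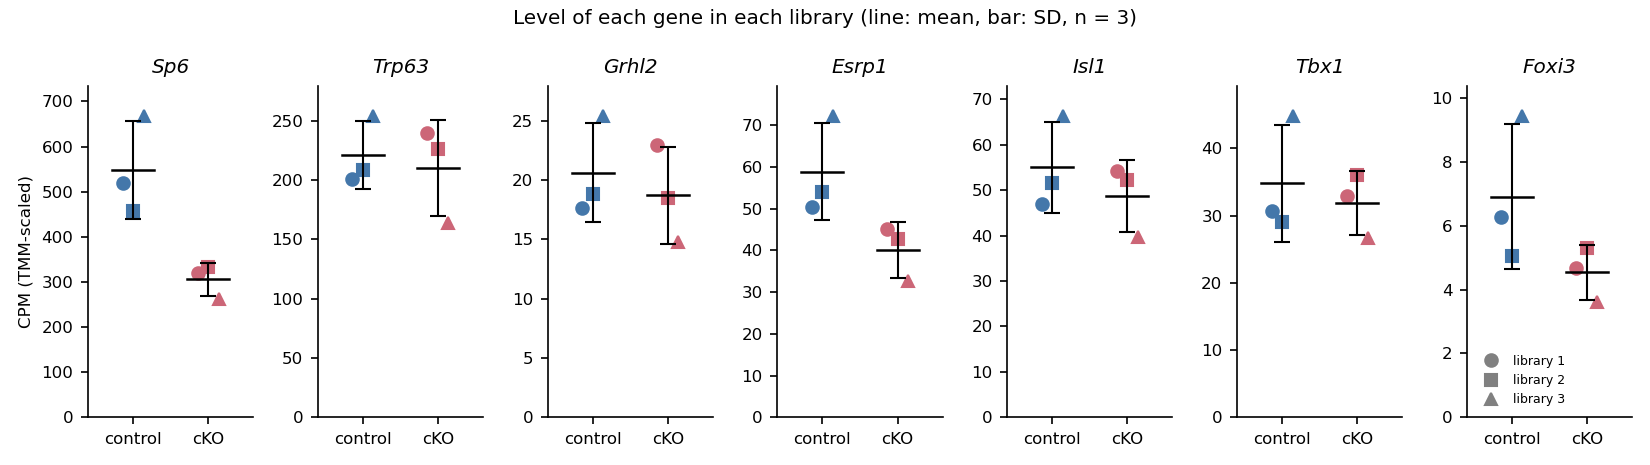
Level of each of the 7 genes in each library, in CPM scaled by TMM on an axis from 0. Points are libraries (shape gives the library number within its group, which pairs nothing), the line is the group mean and the bar its SD (n = 3). Only Sp6 and Esrp1 have every cKO library below every control.

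Per kilobase of exon the genes spanned a wide range of levels. Lengths were merged over all annotated exons, which understates genes with many alternative exons such as Trp63. In controls Sp6 led with 143 ± 28.2 CPM per kilobase (SD, n = 3), followed by Trp63 with 26.4 ± 3.40, Isl1 with 13.9 ± 2.54, Tbx1 with 9.90 ± 2.47, Esrp1 with 9.33 ± 1.85, Foxi3 with 5.39 ± 1.77 and Grhl2 with 2.39 ± 0.483 CPM per kilobase. The control ranges of Isl1 and Tbx1 overlapped, as did those of Tbx1 and Esrp1, so those neighbours in the order were not separated by the spread between libraries. The other neighbours had separate ranges. In the cKO libraries the order was the same, Sp6 lay between 68.6 and 86.7 CPM per kilobase, and the ranges of Tbx1 and Esrp1 no longer overlapped.

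Sp6 lies at chr11:97013394-97024734 on the plus strand (mm10). It measured 519, 457 and 668 CPM in controls 1 to 3 and 321, 333 and 263 CPM in cKO 1 to 3. Every cKO library was below every control, and the lowest control stood well above the highest cKO library. The means were 548 ± 108 and 306 ± 37.2 CPM (SD, n = 3 each), a log2 fold change of -0.84 (SE 0.16, 95% interval -1.21 to -0.47). Only 2.08% of all tested genes had a log2 fold change as low or lower. The difference did not pass with edgeR (adjusted p = 0.0819) and passed with DESeq2 (adjusted p = 2.19e-05). It kept its direction in all 19 alternatives, with adjusted p from 8.38e-07 to 0.175 over them, and DESeq2 called it with any 1 library left out.

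The Sp6 value may hold reads of a second gene. Of its 3841 exonic bases, 86.7% lie opposite exons of Gm11532, a noncoding transcript on the other strand, and whether the library kept strand is not given in the sources used here. Gm11532 measured 15.4, 14.7 and 23.2 CPM across the controls, against 12.1, 9.36 and 7.43 CPM across the cKO libraries, again with separate groups (log2 fold change -0.88, SE 0.23, edgeR adjusted p = 0.131). The Sp6 count was 31.2 ± 2.45 times that of Gm11532 in controls and 32.6 ± 5.16 times in cKO libraries (SD, n = 3), with overlapping groups. If strand was not kept, reads of the 2 genes cannot be told apart over the shared bases.

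Trp63 (chr16:25683763-25892102, plus strand) did not follow Sp6. It measured 201, 209 and 254 CPM across the controls, against 240, 226 and 164 CPM across the cKO libraries, so cKO 1 and cKO 2 lay within the control range and cKO 3 below it. The log2 fold change was -0.076 (SE 0.16, 95% interval -0.44 to 0.29, edgeR adjusted p = 0.846). The interval leaves room for a modest change either way, and the sign turned to 0.034 without control 3 and to 0.074 without cKO 3. Counts per gene do not separate the long and the N-terminally truncated forms of p63. Within each library, 2.58, 2.19 and 2.63 counts of Sp6 were found per count of Trp63 in controls 1 to 3, and 1.34, 1.47 and 1.61 in cKO 1 to 3. This ratio, chosen after its values were seen, needs no scaling between libraries and was separate between the groups.

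Grhl2 (chr15:37233036-37363569, plus strand) measured 17.7, 18.8 and 25.4 CPM across the controls, against 22.9, 18.5 and 14.7 CPM across the cKO libraries. The groups overlapped over most of their range, and the log2 fold change was -0.14 (SE 0.19, 95% interval -0.59 to 0.31, edgeR adjusted p = 0.761). Its direction turned without control 3 (0.038) and without cKO 3 (0.0070). Only 1.96% of its exonic bases lie opposite another gene.

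Esrp1 (chr4:11331933-11386783, minus strand), which Grhl2 is known to support in epithelia, measured 50.4, 54.0 and 72.1 CPM across the controls, against 45.2, 42.7 and 32.5 CPM across the cKO libraries. The groups did not overlap, although control 1 and cKO 1 were close. The means were 58.8 ± 11.7 and 40.2 ± 6.71 CPM, a log2 fold change of -0.55 (SE 0.17, 95% interval -0.95 to -0.15, edgeR adjusted p = 0.173). DESeq2 called it lower (adjusted p = 0.0322), but not without control 2, control 3, cKO 2 or cKO 3. Its DESeq2 adjusted p was then 0.0616, 0.235, 0.0986 and 0.187. Over the 19 alternatives of all methods the adjusted p ran from 0.0187 (DESeq2 without control 1) to 0.368 (edgeR without control 3). Esrp1 counts per count of Grhl2 were 2.85, 2.87 and 2.84 in the controls, against 1.97, 2.31 and 2.21 in the cKO libraries, a narrow control range with all cKO libraries below it. This pair was also chosen after its values were seen. The related splicing factor Esrp2 averaged 17.8 CPM in control and 13.6 CPM in cKO libraries (log2 fold change -0.38, edgeR adjusted p = 0.381), and the ratio of Esrp1 to Esrp2 overlapped between groups. Which exons Esrp1 and Esrp2 include cannot be read from counts per gene.

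**Figure D2:**
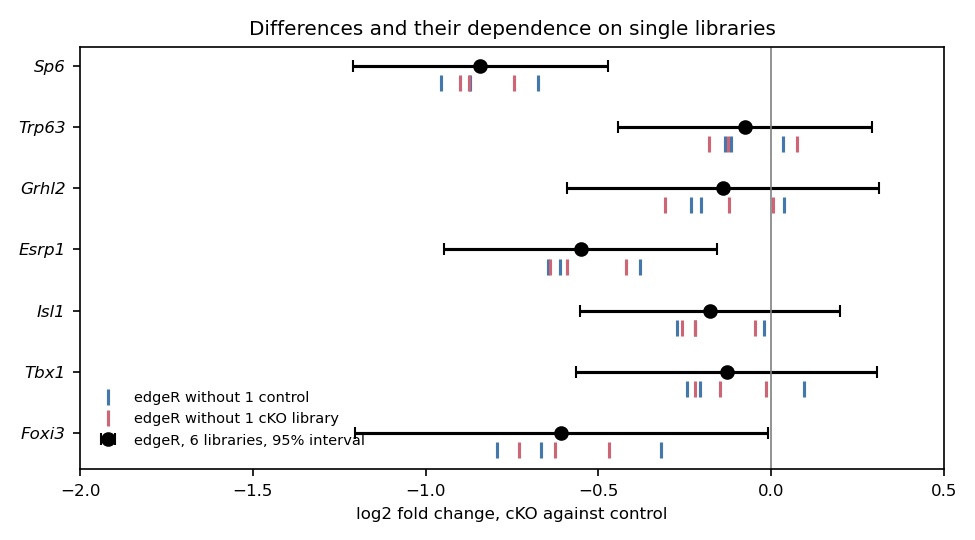
Log2 fold change of cKO against control for each gene (edgeR). Black points and bars are all 6 libraries with the 95% interval, and ticks below are fits that leave out 1 control (blue) or 1 cKO library (red). Sp6, Esrp1 and Foxi3 stay below 0 in each fit, while Trp63 and Grhl2 cross 0 without control 3 or cKO 3 and Tbx1 without control 3.

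Isl1 (chr13:116298281-116309689, minus strand), a LIM homeobox factor that marks incisor as opposed to molar epithelium, measured 47.0, 51.6 and 66.3 CPM in the controls. In the cKO libraries it measured 54.2, 52.1 and 39.6 CPM. Again cKO 1 and cKO 2 lay inside the control range and cKO 3 below it, with a log2 fold change of -0.18 (SE 0.16, 95% interval -0.55 to 0.20, edgeR adjusted p = 0.626). The fold change was -0.020 without control 3 and -0.048 without cKO 3. Isl1 is also made by some neurons. The 8 nerve and Schwann cell genes summed to 110 to 150 CPM in control and 91.5 to 116 CPM in cKO libraries, with members moving in opposite directions. The neuronal tubulin Tubb3 was lower, at 64.2 CPM in control and 39.2 CPM in cKO libraries (edgeR adjusted p = 0.0935, DESeq2 adjusted p = 0.000808), and the growth cone gene Gap43 higher, at 12.9 to 17.2 CPM in control and 26.6 to 29.5 CPM in cKO libraries (edgeR adjusted p = 0.0610, DESeq2 adjusted p = 3.45e-09), both with separate groups. The axonal gene Nefl and the peripheral neuron gene Prph reached at most 0.194 and 0.192 CPM in any library. The part of nerve RNA in the Isl1 values was not tested.

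Tbx1 (chr16:18580979-18590671, minus strand), a T-box factor of dental epithelial progenitors, measured 30.6, 29.0 and 44.8 CPM across the controls, against 32.9, 36.1 and 26.7 CPM across the cKO libraries. Control 3 alone exceeded the highest cKO library, and without it the direction turned (0.095, against -0.13 with all libraries, SE 0.18, edgeR adjusted p = 0.773). Tbx1 is also known from muscle precursors. Control 1, the library with muscle RNA, had a Tbx1 level between those of controls 2 and 3. The part of muscle RNA in the Tbx1 values was not tested.

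Foxi3 (chr6:70956531-70961066, plus strand), a forkhead factor of ectodermal placodes and tooth epithelium, had the fewest reads, with 226 to 558 estimated counts per library. It measured 6.27, 5.03 and 9.42 CPM across the controls, against 4.67, 5.31 and 3.62 CPM across the cKO libraries, so cKO 2 lay above control 2. The means were 6.91 ± 2.26 and 4.53 ± 0.855 CPM, a log2 fold change of -0.61 (SE 0.25, 95% interval -1.20 to -0.010, edgeR adjusted p = 0.282). The value rested on control 3, without which it was -0.32 (edgeR adjusted p = 0.612). DESeq2 gave an adjusted p of 0.153 with all libraries and 0.0442 without control 2, with a range of 0.0442 to 0.717 over the 19 alternatives.

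Promoter sequence was at hand in RefSeq (GRCm38.p6) for 3 of the 7, Foxi3, Isl1 and Tbx1. They are shown to give the sequence before the start of these genes, whose groups all overlapped. Each is written 5′ to 3′ on the gene's strand and ends at the base before the most upstream annotated start. Windows were searched on both strands for the RUNX core TGTGGT, the GC box GGGCGG bound by SP factors, the GRHL core AACCGG and the GLI motif TGGGTGGTC, and capitals mark any match. The windows are chr6:70956356-70956530, chr13:116309690-116309938 and chr16:18590672-18590921 in the order printed.
Foxi3: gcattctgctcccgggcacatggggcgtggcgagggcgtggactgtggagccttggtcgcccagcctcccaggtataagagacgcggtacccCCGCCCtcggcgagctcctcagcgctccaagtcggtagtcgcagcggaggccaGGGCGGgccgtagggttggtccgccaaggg
Isl1: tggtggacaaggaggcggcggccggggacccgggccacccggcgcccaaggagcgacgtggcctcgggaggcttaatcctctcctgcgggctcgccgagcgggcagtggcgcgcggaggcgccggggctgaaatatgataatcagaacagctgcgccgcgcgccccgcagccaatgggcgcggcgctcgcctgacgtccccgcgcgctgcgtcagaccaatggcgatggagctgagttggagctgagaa
Tbx1: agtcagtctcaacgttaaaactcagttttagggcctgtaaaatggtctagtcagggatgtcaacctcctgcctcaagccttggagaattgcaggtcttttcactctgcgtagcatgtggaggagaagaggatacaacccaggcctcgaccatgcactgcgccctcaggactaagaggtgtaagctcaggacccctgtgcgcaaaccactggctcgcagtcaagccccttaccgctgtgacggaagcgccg
Foxi3 held 2 GC boxes, beginning 30 bases (gene strand) and 83 bases (other strand) from the window's end, as 20.2% of all 32851 promoters in the table hold at least 1 in a window of that length. The Isl1 and Tbx1 windows held none, where 32.6% and 32.7% of promoters cut to those lengths do. No window held the RUNX, GRHL or GLI letters, which occur in 10.1%, 3.76% and 0.17% of promoters at the length of the Foxi3 window. Isl1 and Foxi3 were GC-rich, at 71.1% and 70.3%, and Tbx1 stood at 54.4%. These matches describe letters only.

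All 7 genes shared the ranking of the extreme libraries. Each was highest of all 6 libraries in control 3 and lowest in cKO 3. Other tissue markers ran with these extremes. The 10 dental mesenchyme genes summed to 14960 CPM in control 3, the lowest of the 6 libraries, and to 44079 CPM in cKO 3, the highest, with none at 0. Col1a1 alone gave 31818 of the 44079 CPM in cKO 3, and not all members followed the sum. Lhx6 was highest in control 3 (18.8 CPM) and lowest in cKO 3 (11.2 CPM), as the 7 genes were, and Barx1 was highest in control 3 (1.89 CPM). Over the groups they summed to 14960 to 23751 CPM in control and 27377 to 44079 CPM in cKO libraries. The 6 secretory ameloblast genes summed to 79974 CPM in control 3 and 22449 CPM in cKO 3, with 60350 to 79974 CPM in control and 22449 to 46984 CPM in cKO libraries. In bulk tissue fewer epithelial cells and less RNA per cell cannot be told apart, and the part of these shifts in the members' values was not tested.

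**Figure D3:**
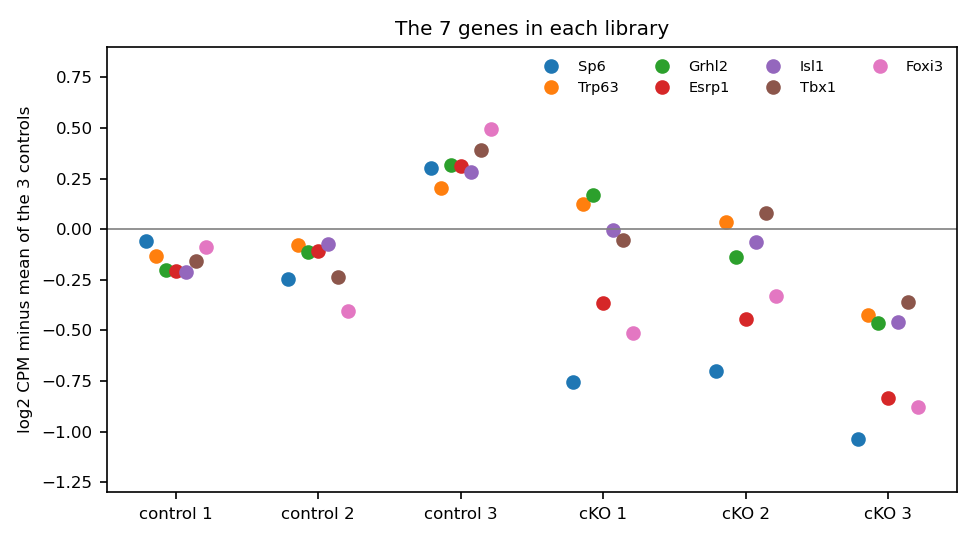
The log2 CPM of each of the 7 genes in each library, less the mean of the 3 controls. In control 3 all 7 genes are above the control mean and in cKO 3 all 7 are below it, and in cKO 1 and cKO 2 Sp6, Esrp1 and Foxi3 lie below the other 4.

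To set the genes against the epithelium in the same library, each was divided by the summed CPM of 15 general epithelial genes, among them Epcam, Cdh1 and the keratins Krt5, Krt14 and Krt17. This reference summed to 3755, 4309 and 4784 CPM across the controls, against 5090, 4080 and 3418 CPM across the cKO libraries, with overlapping groups and 53.4% of it from Krt5, Krt14 and Perp. Sp6 stood at 138, 106 and 140 CPM per 1000 CPM of reference in the controls, against 63.1, 81.6 and 77.1 in the cKO libraries. The groups remained apart, with a log2 difference of -0.79 (exact permutation test, two-sided, p = 0.1, the smallest that 3 against 3 allows; adjusted p = 0.35 over 7 genes). Esrp1 stood at 13.4, 12.5 and 15.1 in the controls, against 8.88, 10.5 and 9.52 in the cKO libraries, also apart (log2 difference -0.51, exact permutation p = 0.1, adjusted p = 0.35). Foxi3 differed by -0.53 with overlapping groups (exact permutation p = 0.2, adjusted p = 0.42).

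Relative to the same reference the other 4 were near parity. The log2 differences were -0.046 for Trp63, -0.070 for Tbx1, -0.10 for Grhl2 and -0.13 for Isl1, with overlapping groups and exact permutation p between 0.3 and 0.8 (adjusted p between 0.42 and 0.8). Trp63 stood at 51.7 ± 2.80 in controls and 50.1 ± 4.53 in cKO libraries per 1000 CPM of reference (SD, n = 3). The reference holds known targets of p63 (Krt5, Krt14 and Perp) and of GRHL2 (Epcam and Cdh1). Trp63 and Grhl2 were thus divided in part by genes known as their own targets, which limits what parity shows for them. The choice of reference mattered. Against Epcam and Cdh1 alone, the differences were -0.49 for Sp6, -0.21 for Esrp1 and -0.23 for Foxi3, and those of the other 4 turned positive, between 0.17 and 0.25. Against Krt5 and Krt14 alone, all 7 were negative, from -1.04 for Sp6 to -0.30 for Trp63. In each of these 3 versions Sp6 had the lowest value.

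**Figure D4:**
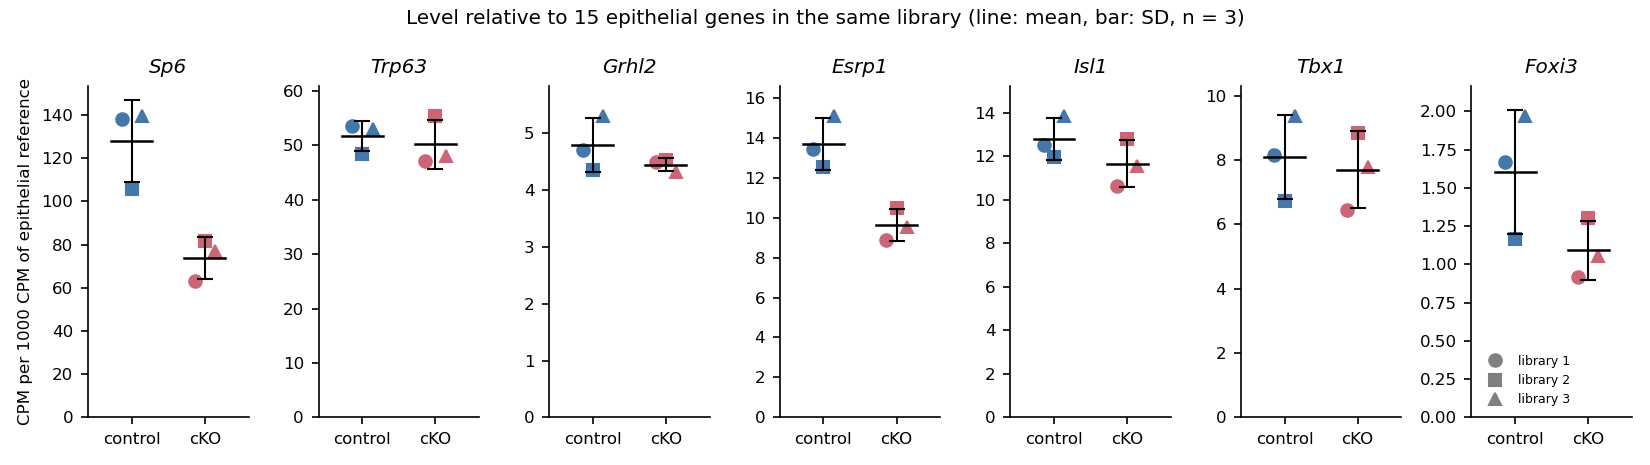
CPM of each gene per 1000 CPM of the 15 epithelial reference genes in the same library, on an axis from 0. Points are libraries, the line is the group mean and the bar its SD (n = 3). Sp6 and Esrp1 remain separate between the groups, and the other 5 genes overlap.

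Enamel matrix genes, made by the ameloblasts that Sp6 serves, gave another frame for Sp6. Enam, an enamel matrix protein, measured 7623, 8229 and 9965 CPM across the controls, against 4725, 5395 and 2876 CPM across the cKO libraries (a log2 fold change of -0.99, edgeR adjusted p = 0.120). Amelx had a log2 fold change of -1.08 (edgeR adjusted p = 0.170) and the enamel protease Mmp20 one of -0.29 (edgeR adjusted p = 0.140), both with separate groups. DESeq2 called 3 of the 6 genes listed as secretory lower and edgeR none, with 5 lower at an edgeR p under 0.05 before adjustment, beside 3.3% and 8.55% of all tested genes lower by these measures (DESeq2, and edgeR before adjustment). A gene among these 5 is also in the epithelial reference. The gene of the 6 above 0 measured 0.0558, 3.28 and 0.118 CPM in controls 1 to 3. In cKO 1 to 3 it measured 4.15, 3.55 and 1.33 CPM, so it was high where the maturation-stage sum was high. Per count of Amelx, Sp6 was at 0.0159 ± 0.000713 in controls and 0.0204 ± 0.00602 in cKO libraries, and per count of Enam at 0.0635 ± 0.00698 and 0.0738 ± 0.0158, both with overlapping groups. Per count of Mmp20, Sp6 was at 1.00 ± 0.151 in controls and 0.689 ± 0.0938 in cKO libraries, with separate groups. These ratios were chosen after their values were seen and have no test.

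The genes whose profile over the 6 libraries was most like that of Sp6 were found by the root mean square difference of log2 CPM, each gene centred on its own mean. Among 15121 other genes with a mean of at least 1 CPM, the closest were Tent5a (0.058), Synpo2 (0.062), Pstpip1 (0.064), Thsd1 (0.070) and Dact2 (0.074). Tent5a, a poly(A) polymerase, measured 171, 153 and 207 CPM across the controls, against 101, 108 and 78.3 CPM across the cKO libraries. Within the set, Esrp1 ranked 128th and Foxi3 133rd by likeness to Sp6, whereas Isl1, Tbx1, Grhl2 and Trp63 ranked between 1349th and 2440th.

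Other regulators and known targets of these factors were read from lists. Of 18 further regulators of dental or surface epithelium, edgeR called 0 and DESeq2 0, and 13 lay below 0 with a median of -0.27, beside 50% of all tested genes below 0. Before adjustment, 5 had an edgeR p under 0.05, all lower and among them Ovol1, Grhl3, Sox21 and Satb1, and 8.55% of all tested genes were lower at that level. In 5 of the 18, every cKO library lay below every control, as in 12% of all tested genes. Of these, Ovol1, a zinc-finger repressor of progenitor fate, had a log2 fold change of -0.78 (SE 0.25, edgeR adjusted p = 0.194). Sox21, a SOX factor of the ameloblast lineage, measured 43.2, 44.5 and 45.0 CPM across the controls, against 30.2, 36.6 and 18.2 CPM across the cKO libraries (edgeR adjusted p = 0.214). Satb1, a chromatin organizer, had a log2 fold change of -0.39 (edgeR adjusted p = 0.207). The stem cell factor Sox2 averaged 3.96 CPM in control and 3.31 CPM in cKO libraries, with overlapping groups.

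Genes known as targets of p63 and of GRHL2 had unlike medians, a difference that was not tested. Of 12 measured p63 targets, edgeR and DESeq2 called 0, 8 lay below 0 and the median was -0.084, beside 50% of all tested genes below 0. Before adjustment, 4 had an edgeR p under 0.05, all lower, beside 8.55% of all tested genes lower at that level. Fras1, a basement membrane protein, had a log2 fold change of -0.38 (edgeR adjusted p = 0.185). Of 6 tested GRHL2 targets, all lay below 0 with a median of -0.48, beside 50% of all tested genes below 0. Only 1 of the 6 had an edgeR p under 0.05 before adjustment, beside 8.55% of all tested genes lower at that level. This was Esrp1, itself a member of the set described here. It was also the only target of the 6 that DESeq2 called, where DESeq2 called 3.3% of all tested genes lower. The adhesion molecule Epcam had a log2 fold change of -0.40 (edgeR adjusted p = 0.309) and the small GTPase Rab25 one of -0.55 (edgeR adjusted p = 0.323). These lists share genes with the epithelial reference, such as Krt5, Krt14 and Perp with p63 targets and Epcam and Cdh1 with GRHL2 targets. The 15 reference genes had a median of -0.32 with 10 below 0, beside 50% of all tested genes below 0. The 5 above 0 included Krt14 (0.38) and Krt5 (0.15), both with overlapping groups. In 2 of the 15, every cKO library lay below every control, as in 12% of all tested genes. These were the simple keratins Krt8 (-0.37, edgeR adjusted p = 0.159) and Krt18 (-0.67, edgeR adjusted p = 0.179). DESeq2 called 1 of the 15, Krt18 (adjusted p = 0.0357), where it called 3.3% of all tested genes lower. The 9 measured genes of cornified and oral surface epithelium summed to 11.2 to 13.0 CPM in control and 14.4 to 17.4 CPM in cKO libraries. Most of this sum came from Sbsn and Krt10, which averaged 6.08 and 3.53 CPM in controls. DESeq2 called 1 of the 5 tested, where it called 1333 of all 19264 tested genes in either direction. This was the oral keratin Krt76, which averaged 0.693 CPM in control and 2.23 CPM in cKO libraries with separate groups (log2 fold change 1.68, edgeR adjusted p = 0.132, DESeq2 adjusted p = 0.00544). Krt1 went the other way, from 0.949 to 0.685 CPM, also with separate groups (log2 fold change -0.47, edgeR adjusted p = 0.397). Lor averaged 0.644 CPM in control and 0.664 CPM in cKO libraries, with overlapping groups. Krt4 and Krt13, keratins of oral lining, reached at most 0.0558 and 0.0800 CPM in any library.

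**Figure D5:**
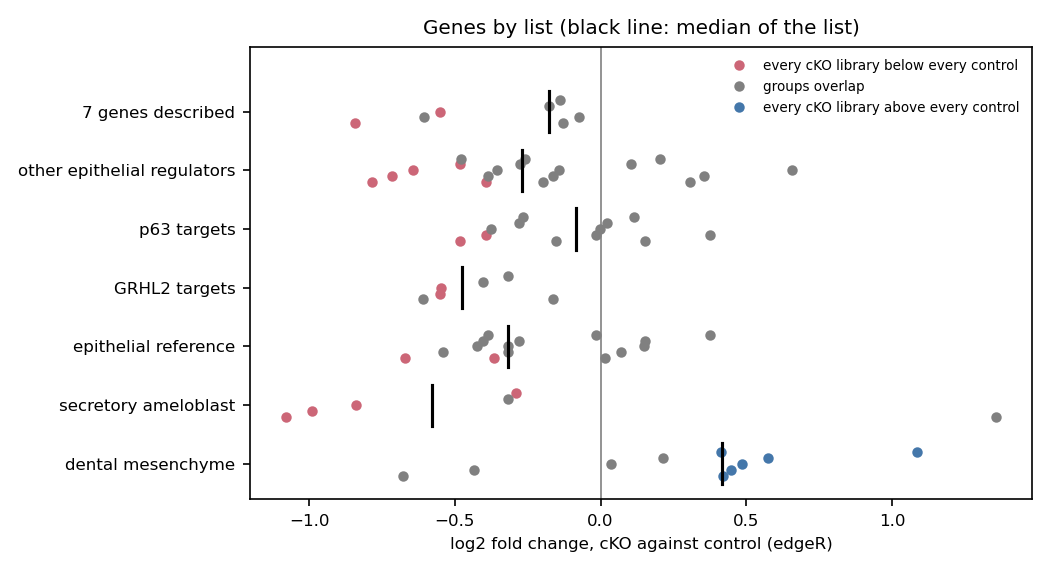
Log2 fold change (edgeR, cKO against control) of each gene of 7 lists, with the list's median as a black line. Red points are genes with every cKO library below every control, blue points the reverse and grey points genes whose groups overlap. The 7 genes described have a median of -0.18, GRHL2 targets one of -0.48 and dental mesenchyme genes one of 0.42.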

How the data were processed

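RNA of the proximal incisor was sequenced in 6 libraries (single-end, 75 cycles). Each title carries a number of its own, and libraries are numbered here in accession order. Per the submitters' processing notes, STAR 2.6.1d and Partek were used with mm10, while parameters and annotation release were not given in the sources used here. Analysis started from the deposited estimated counts per gene, of which 45.6% to 48.0% were whole in a library (tolerance 1e-09), as when reads are shared between genes. The authors' second table holds a normalized signal, found to be (estimated count + 1) times a constant for each library (100% of values within 0.1%).

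Estimated counts were rounded. After filterByExpr (minimum count 10, minimum total 15) and TMM scaling, genotype was tested with the two-sided quasi-likelihood F-test of edgeR 4.0.16 (R 4.3.3), using the 6 libraries and no covariate. P-values were adjusted by Benjamini-Hochberg over 19264 genes, with a threshold of 0.05. Standard errors and 95% intervals follow from the F statistic. DESeq2 1.42.0 and limma 3.58.1 (on log2 of the authors' normalized signal) were alternatives. Replicate libraries differed beyond counting noise (chi-square per degree of freedom 46.0 to 73.3). The edgeR fit was tested on counts simulated with its own dispersion estimates, and the other steps were not tested in this way.

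Coordinates are the deposited ones with the end reduced by 1, which match GENCODE M21 (GRCm38) for 7 of 7 genes. Exonic lengths and overlaps come from GENCODE M21. Named genes are the set itself, Runx2 and Gli1 as a check, genes sharing exonic bases with a member, the 5 most like the member of lowest p, and from each list any gene that passed, or failing that the 3 with the lowest p, except for genes not reported here. Gli1 averaged 152 ± 58.9 CPM in the control and 74.5 ± 3.70 CPM in the cKO group (SD, n = 3). Sox2, Esrp2 and genes named only as markers were chosen after their values were seen. The members and lists were chosen with earlier results of these data known.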

Additional observations from a re-analysis of the deposited data

How the results depend on the processing

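No paired analysis was possible because the groups share no replicate numbers in the labels, which speak of pairs of samples without naming them. Sp6, Esrp1 and Foxi3 were below 0 in all 19 alternatives, 6 of which (DESeq2 with 1 library left out) were added after the data were seen. The main count of 0 of the 7 genes called held in 12 of the 13 other alternatives and was 2 with DESeq2 (Sp6 -0.84, Esrp1 -0.55), with 1333 of all genes called where edgeR called 5. The cause was not tested. With 1 library left out edgeR called 0 to 72 genes and none of the 7, with Sp6 between -0.96 and -0.67. DESeq2 then called 708 to 1291 genes and 1 to 2 of the 7, with Sp6 between -0.95 and -0.67, Esrp1 between -0.65 and -0.38 and Foxi3 between -0.79 and -0.32. With the mean log2 CPM of the epithelial reference as a covariate, Isl1 (0.029), Trp63 (0.11), Grhl2 (0.098) and Tbx1 (0.069) turned positive, Sp6 was -0.70, Esrp1 -0.34 and Foxi3 -0.38, 13 genes of all tested were called and the reference list's own median was -0.10. With 1 library left out the fold changes ran from -0.27 to -0.020 for Isl1, -0.18 to 0.074 for Trp63, -0.31 to 0.038 for Grhl2 and -0.24 to 0.095 for Tbx1 with edgeR, and from -0.28 to -0.020, -0.18 to 0.077, -0.31 to 0.039 and -0.24 to 0.095 with DESeq2. With 1 library left out, list medians ran from -0.31 to -0.020 for the 7 genes, -0.36 to -0.10 for other regulators, -0.17 to -0.030 for p63 targets, -0.60 to -0.30 for GRHL2 targets and -0.36 to -0.19 for the reference. They also moved for skeletal muscle genes (-4.59 with all libraries, -1.98 with limma on the authors' values, -5.25 to 0.10 with 1 library left out) and for maturation-stage enamel genes (1.37 with all libraries, 0.85 to 3.99). Against Epcam and Cdh1 alone the ratio differences were 0.17 for Isl1, 0.25 for Trp63, 0.20 for Grhl2 and 0.23 for Tbx1, and that of Tbx1 ran from -0.19 to 0.051 with 1 library left out. With 3 libraries a group the exact test cannot give a p below 0.1.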
